A study of Mus musculus with 24 samples.

Results

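The proteasome genes of mouse fibroblast lines were followed through perturbations of the integrated stress response. Members were all probe sets whose single platform symbol starts with Psma, Psmb, Psmc, Psmd or Psme and a digit. This took 53 of the 12488 probe sets on the array, for 42 genes. They comprised 7 genes of the alpha ring (7 probe sets), 7 of the constitutive beta ring (12), 3 inducible beta subunits (3), 6 ATPases of the cap (9), 11 other cap subunits (13), 3 chaperones of cap assembly (3) and 3 activators (4). Psmc3ip, a recombination factor, and Psme3ip1, a protein that binds the activator PA28 gamma, match by name but are not proteasome subunits.

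The proteasome degrades proteins tagged with ubiquitin. Its barrel-shaped core, the 20S particle, has outer rings of alpha subunits that gate the channel and inner rings of beta subunits, of which Psmb5, Psmb6 and Psmb7 carry the cutting sites. The 19S cap recognises, unfolds and feeds in substrates with a ring of ATPases (Psmc genes) and a set of other subunits (Psmd genes). Under interferon the catalytic subunits Psmb8, Psmb9 and Psmb10 replace the constitutive ones and form the immunoproteasome, and Psme1 and Psme2 form the activator PA28 that opens the core without a cap. Misfolded proteins of the endoplasmic reticulum (ER) are exported and degraded by the proteasome, which ties it to ER stress. When stress activates the kinase PERK, phosphorylated eIF2alpha lowers protein synthesis and raises the transcription factor ATF4.

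RNA had been hybridised to 24 arrays in 12 groups of 2. In the first 12, called the tunicamycin arrays, wild-type, ATF4-/- and PERK-/- fibroblasts were untreated or given 2 ug/ml tunicamycin, which blocks N-linked glycosylation and so causes ER stress. The labels state 6 h of treatment for wild-type and ATF4-/- cells but leave the time open for PERK-/- cells. The other 12, called the Fv2E-PERK arrays, came from 2 lines that express Fv2E-PERK, a chimeric kinase switched on by the dimerizer AP20187 in the absence of ER stress. The SS line had wild-type eIF2alpha and lacked endogenous PERK, since high expression of the chimera had not been reached in wild-type cells, and the AA line had mutant eIF2alpha with no stated PERK genotype. Each line was untreated or given AP20187 (2 nm as written in the labels) for 4 h or 8 h. Each genotype was represented by 1 line or by cells with no stated number of lines, so genotype and line cannot be told apart.

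Promoters of 4 members are shown because the results below turn on these genes: Psme1 and Psmb8 had the widest gaps between untreated AA and SS cells, Psma5 was the member called after AP20187, and Psmb6 followed the average profile of the other members most closely. Windows run from 250 bases before to 50 after the annotated start, on the plus strand of mouse build GRCm38.p6 (RefSeq), at chr14:55578244-55578543 for Psme1, chr17:34197945-34198244 for Psmb8, chr3:108256676-108256975 for Psma5 and chr11:70525107-70525406 for Psmb6. Capitals mark a match to GAAA, 2 bases of any kind and GAAA again (the core of an interferon-stimulated response element, here on the minus strand) in Psme1, to TTCNNNGAA (a gamma-activated site) in Psmb8 and to TGACNNNGC (an antioxidant response element, the site type of the proteasome regulator Nrf1, gene Nfe2l1) in Psmb6. Psma5 held no match to any motif searched.
Psme1: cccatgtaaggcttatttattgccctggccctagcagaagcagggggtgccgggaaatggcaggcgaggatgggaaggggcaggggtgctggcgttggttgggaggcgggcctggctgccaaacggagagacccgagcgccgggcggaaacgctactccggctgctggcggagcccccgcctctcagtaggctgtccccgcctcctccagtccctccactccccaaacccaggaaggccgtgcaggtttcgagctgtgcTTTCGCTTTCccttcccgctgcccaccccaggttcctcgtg
Psmb8: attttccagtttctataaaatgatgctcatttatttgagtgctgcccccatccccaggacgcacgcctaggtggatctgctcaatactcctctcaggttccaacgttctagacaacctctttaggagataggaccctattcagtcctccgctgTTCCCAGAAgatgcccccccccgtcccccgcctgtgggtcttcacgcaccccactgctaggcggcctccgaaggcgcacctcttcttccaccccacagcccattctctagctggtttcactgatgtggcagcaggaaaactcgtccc
Psma5: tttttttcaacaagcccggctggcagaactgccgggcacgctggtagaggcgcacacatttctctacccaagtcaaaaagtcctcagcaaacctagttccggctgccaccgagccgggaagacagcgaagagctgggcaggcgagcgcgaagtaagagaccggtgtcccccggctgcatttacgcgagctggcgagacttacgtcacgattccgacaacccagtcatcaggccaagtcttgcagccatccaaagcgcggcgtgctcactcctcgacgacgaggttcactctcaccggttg
Psmb6: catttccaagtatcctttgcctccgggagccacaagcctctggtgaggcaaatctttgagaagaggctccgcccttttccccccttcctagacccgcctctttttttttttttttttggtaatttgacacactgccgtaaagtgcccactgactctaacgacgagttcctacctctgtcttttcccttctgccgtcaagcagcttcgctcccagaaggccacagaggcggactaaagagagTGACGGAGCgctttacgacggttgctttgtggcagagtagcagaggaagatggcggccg

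Both strands of 39 windows were searched, which belong to 36 of the 42 genes. TGACNNNGC was found for 6 genes (Psmb5, Psmb6, Psmc6, Psmd12, Psmd9 and Psme4), against 12.4% of all 32851 windows. The ATF4 composite core TGATGNAA was found for 1 gene, Psmd13, against 3.97% of windows, and CCAAT for 15 genes, against 37.4%. The interferon-stimulated response element core was found for 4 genes (Psmb3, Psmd4, Psmd9 and Psme1; 3.44% of windows) and TTCNNNGAA for 2 (Psmb8 and Psmd2; 8.3%). The last 2 motifs were added after the values had been seen. A match describes letters only.

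Values were deposited as ratios in which each probe set's median across the 24 arrays is near 1, so levels cannot be compared between genes. No value falls under 0.01, the floor. A tunicamycin array held 22.6% to 25.6% of its values at the floor, against 0.00805% to 0.105% on an Fv2E-PERK array, so the 2 sets were never compared with each other. Log2 differences below are on the scale log2(ratio + 0.247), with standard errors from a limma fit to the 7369 probe sets never at the floor, and "called" means an adjusted p (Benjamini-Hochberg over those 7369) under 0.05. Of the members, 43 probe sets for 36 genes were tested. The treatments were checked on 9 probe sets for 7 stress genes such as Ddit3 and Hspa5: 7 were called higher in wild-type cells with tunicamycin, 5 in ATF4-/- cells, 1 in PERK-/- cells, 7 and 8 in SS cells at 4 h and 8 h, and 0 in AA cells at either time (0 also at unadjusted p under 0.05). At unadjusted p under 0.05, tunicamycin raised 9 in wild-type, 5 in ATF4-/- and 8 in PERK-/- cells. In SS cells 8 were higher by that limit at each time. Of 10 fibroblast marker genes, 8 were never at the floor, against 3 of 8 leukocyte, 1 of 4 epithelial and 1 of 3 endothelial markers. Over the whole array, 7369 of 12422 probe sets were never at the floor. These small counts do not establish the cell type. In bulk RNA, fewer cells of a type and less RNA per cell cannot be told apart.

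The members differed between replicate arrays in several groups, which bears on every comparison with them. In untreated SS cells the median member ratio was 1.24 on replicate 1 and 1.81 on replicate 2. Only 4 of 43 members were higher on replicate 1, against 38.1% of all tested probe sets. The median over all tested probe sets was 1.01 and 1.09 on the same arrays. In untreated wild-type cells the median member ratio was 0.805 on replicate 1 and 0.646 on replicate 2. There 33 of 43 members were higher on replicate 1, against 53.8% of all. Among treated groups, 4 of 43 members were higher on replicate 1 in SS cells at 8 h (34.1% of all tested probe sets). The counts were 35 in AA cells at 4 h (56.8%), 38 in AA cells at 8 h (57.4%) and 31 in ATF4-/- cells with tunicamycin (59.5%). The other tunicamycin arrays lay between 0.651 and 0.906, and the other Fv2E-PERK arrays between 1.12 and 1.71.

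**Figure D1:**
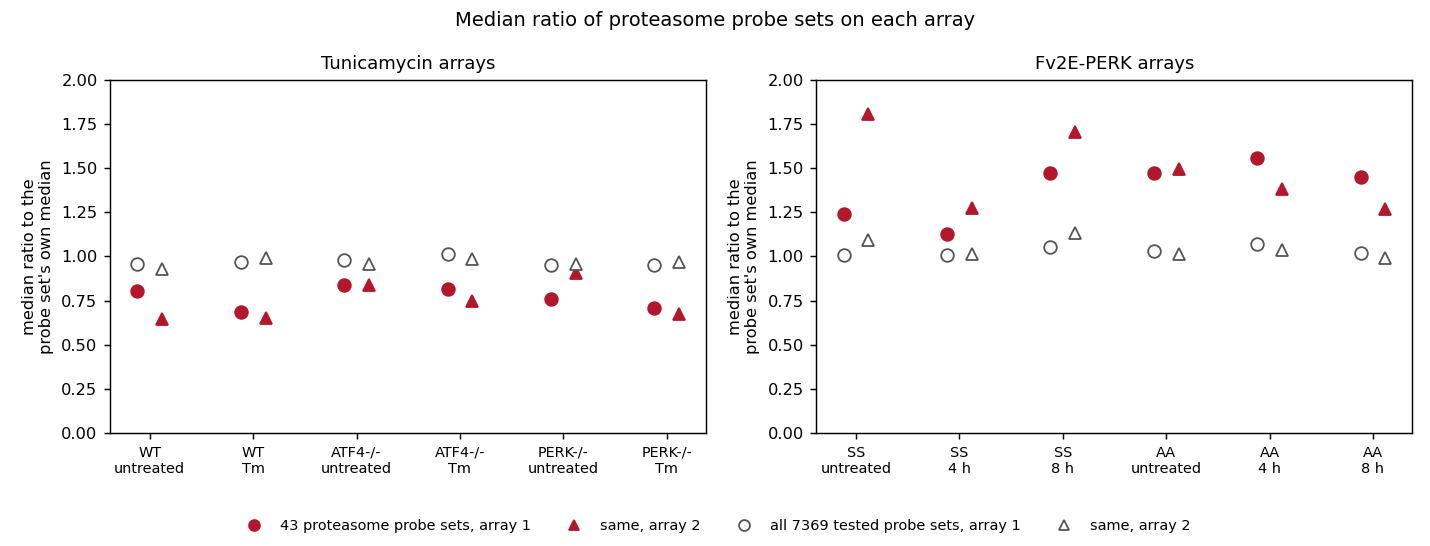
Median ratio on each of the 24 arrays over the 43 tested proteasome probe sets (red) and over all 7369 tested probe sets (open), with circles for replicate 1 and triangles for replicate 2 of each group. Untreated SS cells have the widest gap between replicates, 1.24 against 1.81, while the 4 h SS arrays lie at 1.12 and 1.27.

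Tunicamycin changed no proteasome probe set past the threshold in any of the 3 genotypes. In wild-type cells 0 of 43 members were called, where 2.81% of all tested probe sets were, and 1 had an unadjusted p under 0.05 (13.4% of all). In ATF4-/- cells the counts were 0 (1.15% of all) and 2 (11.9%), and in PERK-/- cells 0 (0.231%) and 4 (9.46%). The median member difference was -0.07 in wild-type, -0.06 in ATF4-/- and -0.13 in PERK-/- cells, beside 0.02, 0.00 and 0.00 over all tested probe sets. The wild-type median was 0.04 without replicate 1 of the untreated wild-type arrays and -0.18 without replicate 2. Differences ranged from -0.34 to 0.63, from -0.33 to 0.49 and from -0.91 to 0.87, and the 95% interval of a typical member reached 0.43 to either side. The difference lay within 0.5 for 40, 43 and 41 of the 43 members.

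In wild-type cells both treated arrays lay above both untreated ones for 1 member (22.1% of all tested probe sets) and below for 9 (18.4%). In ATF4-/- cells 9 lay above (25%) and 12 below (21.9%), and in PERK-/- cells 2 lay above (15%) and 14 below (14.1%). The differences of response from wild-type cells, tested as interactions, called 0 members in ATF4-/- cells (0.0543% of all; 1 at unadjusted p under 0.05, where 6.92% were) and 0 in PERK-/- cells (0.461%; 2, where 10.4% were). Their member medians were -0.02 and -0.08, beside 0.00 and -0.02 over all tested probe sets, and 0.13 and 0.02 without replicate 2 of the untreated wild-type arrays.

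By role, the 7 alpha-ring members all had negative differences with tunicamycin in each genotype, with medians of -0.13, -0.10 and -0.21, none called. Psma5, an alpha-ring subunit, had ratios of 0.635 and 0.585 in untreated wild-type cells and 0.506 and 0.563 with tunicamycin, which do not overlap. In ATF4-/- cells it went from 0.769 and 0.671 to 0.548 and 0.531. In PERK-/- cells it had 0.980 and 0.981 untreated and 0.706 and 0.607 treated, a difference of -0.44 ± 0.15 (limma adjusted p = 0.294). Every treated pair was thus below its untreated pair, and none of the 3 differences was called. The 10 tested cap subunits other than ATPases were all below 0 in PERK-/- cells, with a median of -0.24, while the medians were -0.07 in wild-type and 0.07 in ATF4-/- cells. The ATPase with the smallest p in PERK-/- cells was Psmc2, with 0.636 and 0.879 untreated and 0.437 and 0.515 treated (-0.47 ± 0.15, adjusted p = 0.245).

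None of the constitutive catalytic subunits was called with tunicamycin. Psmb6, the caspase-like site, had 0.387 and 0.329 in wild-type cells before and 0.301 and 0.308 after the drug. In ATF4-/- cells it had 0.423 and 0.422 untreated and 0.444 and 0.345 treated, and in PERK-/- cells 0.366 and 0.739 untreated and 0.313 and 0.559 treated. The treated and untreated arrays overlapped in ATF4-/- and PERK-/- cells. Psmb7, the trypsin-like site, read 0.779 and 0.718 against 0.649 and 0.633 with the drug in wild-type cells, 0.840 and 0.883 against 0.832 and 0.743 in ATF4-/- cells, and 1.10 on 1 untreated PERK-/- array and 0.759 on the other, against 0.646 and 0.913. Psmb5, the chymotrypsin-like site, had 0.672 and 0.565 untreated and 0.524 and 0.651 treated in wild-type cells on its probe set 101558_s_at. It had 0.731 and 0.794 against 0.730 and 0.662 in ATF4-/- cells and 0.502 and 0.816 against 0.552 and 0.602 in PERK-/- cells. Across these 3 probe sets and 3 genotypes the differences lay between -0.21 and -0.05, with adjusted p from 0.798 to 0.967.

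Psme3ip1 had the smallest p of any member with tunicamycin in wild-type cells. Its ratios were 0.711 and 0.463 untreated and 0.869 and 1.11 treated, a difference of 0.58 ± 0.18 (limma adjusted p = 0.107). In ATF4-/- cells they were 0.741 and 0.870 untreated and 1.22 and 1.25 treated (0.49 ± 0.18, adjusted p = 0.261), and in PERK-/- cells 0.763 and 0.699 against 0.817 and 0.848. The treated arrays lay above the untreated ones in each genotype without a call. Psmd12, a scaffold subunit of the cap, was the only other member with an unadjusted p under 0.05 in ATF4-/- cells, at 0.43 ± 0.19 (adjusted p = 0.387).

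**Figure D2:**
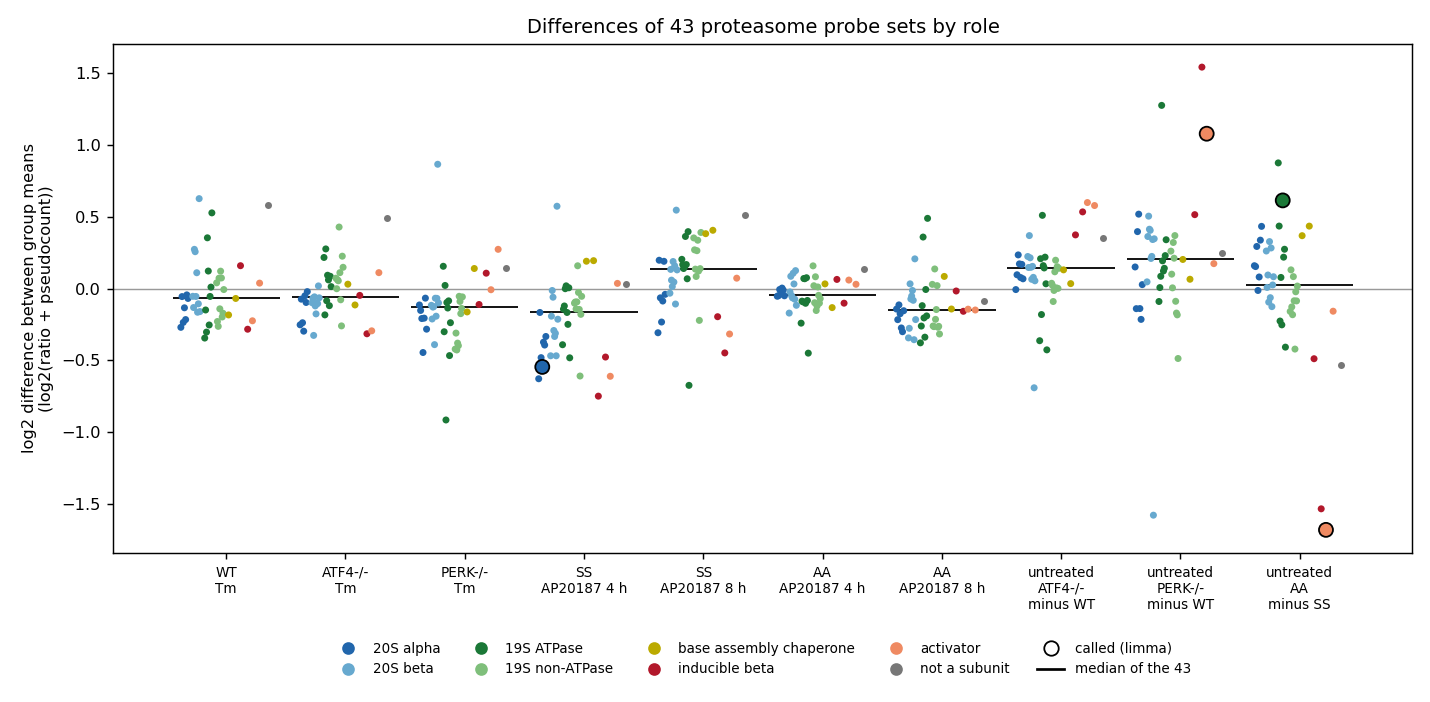
Log2 differences of the 43 tested proteasome probe sets in 10 comparisons, coloured by role, with the median as a black line and called probe sets as large outlined points. The 4 called points are Psme1 in untreated PERK-/- against wild-type cells and in untreated AA against SS cells, Psma5 in SS cells at 4 h, and Psmc3 in untreated AA against SS cells.

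Untreated mutant cells were compared with untreated wild-type cells. In PERK-/- cells 1 member was called, Psme1, where 4.99% of all tested probe sets were, and 8 had an unadjusted p under 0.05 (19.4%). In ATF4-/- cells 0 were called (0.869%) and 1 had an unadjusted p under 0.05 (9.63%). The member median was 0.20 in PERK-/- and 0.14 in ATF4-/- cells, beside 0.01 and 0.02 over all tested probe sets. Both ATF4-/- arrays lay above both wild-type arrays for 14 members (21.8% of all) and below for 0 (16.6%), and both PERK-/- arrays lay above for 13 (21.4%) and below for 5 (19.9%). Without replicate 2 of the untreated wild-type arrays these medians were 0.05 in PERK-/- and -0.00 in ATF4-/- cells, and no member was called.

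Psme1, the alpha subunit of PA28, had ratios of 0.850 and 0.400 in untreated wild-type cells, 1.04 and 1.02 in ATF4-/- cells and 1.23 and 1.90 in PERK-/- cells. Its mean was 0.625 ± 0.318 (SD, n = 2) in wild-type and 1.56 ± 0.478 in PERK-/- cells, a ratio of means of 2.50. It was called higher in PERK-/- cells, by 1.08 ± 0.28 (limma adjusted p = 0.0343), and the groups did not overlap. Tunicamycin left it at 0.465 and 0.484 in wild-type, 0.825 and 0.764 in ATF4-/- and 1.22 and 1.89 in PERK-/- cells, with differences from untreated cells between -0.29 and -0.01. These values are from probe set 101510_at. The second Psme1 probe set, 161293_r_at, was at the floor on 2 arrays and was not tested. It did not show the rise, with 0.997 and 0.126 in untreated wild-type and 1.13 and 0.01 in untreated PERK-/- cells. The call was lost without replicate 2 of the untreated wild-type arrays (0.70, adjusted p = 0.259), without replicate 2 of the untreated PERK-/- arrays (0.81, adjusted p = 0.217) and in a fit to the tunicamycin arrays alone (adjusted p = 0.105).

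Psmb8, the inducible counterpart of Psmb5, had 1.67 and 0.149 in untreated wild-type cells, 0.809 and 1.26 in ATF4-/- cells and 3.13 and 1.66 in PERK-/- cells. With tunicamycin it had 0.829 and 0.229, 0.602 and 0.965, and 3.66 and 1.66 in the same order. The 4 PERK-/- arrays were at or above 1.66, while 1 of the 4 wild-type arrays reached 1.67. The difference between untreated PERK-/- and wild-type cells was 1.54 ± 0.58 and was not called (adjusted p = 0.149). Without replicate 1 of the untreated wild-type arrays it was 2.68 (adjusted p = 0.0120), and without replicate 2 it was 0.41. Psmb10, the inducible counterpart of Psmb7, had 0.853 and 0.471 in wild-type, 1.01 and 0.812 in ATF4-/- and 1.12 and 0.936 in PERK-/- cells, all untreated, and with tunicamycin 0.762 and 0.730, 0.904 and 0.833, and 1.06 and 0.809. Psmb9, the inducible counterpart of Psmb6, was at the floor on all 12 tunicamycin arrays.

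The second activator gene could not be read apart from a close copy. The probe set 100588_at names both Psme2 and Psme2b and so is not a member. It had 1.07 and 0.897 in untreated wild-type, 1.19 and 1.05 in ATF4-/- and 1.49 and 1.93 in PERK-/- cells (PERK-/- minus wild-type 0.66 ± 0.22, adjusted p = 0.105). With tunicamycin it had 0.771 and 0.727, 0.829 and 0.909, and 1.27 and 1.74. The other probe set that names both genes, 161938_r_at, had the opposite sign in untreated PERK-/- against wild-type cells. Its difference was -1.37 ± 0.70 and was not called (limma adjusted p = 0.3005), so the 2 probe sets disagree. Psma5 stood higher in untreated PERK-/- cells, by 0.52 ± 0.15, without a call (adjusted p = 0.0615).

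In SS cells, AP20187 lowered 1 member past the threshold at 4 h and none at 8 h. At 4 h the call was Psma5, where 8.98% of all tested probe sets were called, and 10 members had an unadjusted p under 0.05 (22.5%). At 8 h 0 were called (12.4%) and 4 had an unadjusted p under 0.05 (25.1%). The member median was -0.17 at 4 h and 0.14 at 8 h, beside -0.03 and 0.07 over all tested probe sets. At 4 h both treated arrays lay above both untreated ones for 2 members (26.7%) and below for 15 (29.8%), and at 8 h above for 9 (33.8%) and below for 1 (22.1%). These medians depended on the untreated arrays: without replicate 1 they were -0.37 and -0.10, with 6 members called at 4 h, and without replicate 2 they were -0.01 and 0.34, with 0 called at 4 h.

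The roles are described here for SS cells. The 7 alpha-ring members were all below 0 at 4 h, with a median of -0.39, and had a median of -0.06 at 8 h. At 4 h 5 of them lay lower without overlap, as did 29.8% of all tested probe sets. Their median ratio was 1.28 on untreated replicate 1 and 2.03 on replicate 2, so these differences depend on the untreated arrays. The 10 tested probe sets of the constitutive beta ring had medians of -0.25 and 0.10, the 9 of the ATPases -0.14 and 0.17, and the 10 of the other cap subunits -0.10 and 0.20. The 2 tested chaperones of cap assembly, Psmd5 and Psmd9, were above 0 at both times, with medians of 0.19 and 0.39. The differences between roles were not tested.

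Psma5 had ratios of 1.37 and 2.04 in untreated SS cells, 1.12 and 1.02 at 4 h and 1.27 and 1.52 at 8 h. Its mean fell from 1.70 ± 0.476 (SD, n = 2) to 1.07 ± 0.0731 at 4 h, a difference of -0.55 ± 0.15 (limma adjusted p = 0.0341), with both treated arrays below both untreated ones. At 8 h it was -0.23 ± 0.15 from untreated (adjusted p = 0.381). The 4 h call was lost without replicate 2 of the untreated arrays (-0.29, adjusted p = 0.351), without either treated array (adjusted p = 0.121 and 0.183) and in a fit to the Fv2E-PERK arrays alone (adjusted p = 0.0503). Psma2 went from 1.27 and 2.03 to 0.979 and 0.934 at 4 h (-0.63 ± 0.22, adjusted p = 0.0953) and stood at 1.15 and 1.37 at 8 h.

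Psmb10 had the largest negative difference of any tested member at 4 h. It had 1.20 and 2.19 in untreated SS cells, 0.785 and 0.964 at 4 h and 1.16 and 1.66 at 8 h. The 4 h arrays lay below both untreated arrays (-0.75 ± 0.24, adjusted p = 0.0688), and the 8 h arrays overlapped them. The other members with the smallest p of their role were Psmd13, a cap subunit, with 1.61 and 2.42 untreated and 1.04 and 1.41 at 4 h (-0.61 ± 0.21, adjusted p = 0.0852), and Psmb1, a beta-ring subunit, with 1.24 and 1.88 untreated and 0.975 and 1.10 at 4 h on probe set 98113_at (-0.47 ± 0.19, adjusted p = 0.138). At 8 h Psmd13 had 1.52 and 1.82 and Psmb1 had 1.23 and 1.59.

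The constitutive catalytic subunits followed the alpha ring in sign at 4 h. Psmb5 on 101558_s_at had 1.48 and 2.23 before AP20187, then 1.18 and 1.31 at 4 h and 1.63 and 1.93 at 8 h (4 h difference -0.47 ± 0.21, adjusted p = 0.191). Psmb6 had 1.35 and 2.08, 1.31 and 1.59, and 1.68 and 2.09 at the same times (-0.19 ± 0.24). Psmb7 had 1.11 and 1.51, 0.938 and 1.06, and 1.37 and 1.60 (-0.31 ± 0.18). The 8 h arrays of all 3 overlapped the untreated ones. Psmb8 had 1.35 and 2.67 before AP20187, then 1.12 and 1.51 at 4 h and 1.03 and 1.71 at 8 h, and Psme1 had 2.61 and 4.22, 1.98 and 2.21, and 2.12 and 3.24. For Psme1 the 4 h arrays lay below the untreated ones (-0.61 ± 0.28, adjusted p = 0.204).

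At 8 h the 4 members with an unadjusted p under 0.05 were Psmc2, Psmc6, Psmd9 and Psme3ip1, which is not a subunit. Psmc2 had 1.12 and 1.49 in untreated SS cells, 1.31 and 1.29 at 4 h and 1.74 and 1.83 at 8 h (8 h difference 0.40 ± 0.15, adjusted p = 0.0976). Psmc6, another ATPase, had 1.34 and 1.54, 1.49 and 1.43, and 1.80 and 2.05 (0.36 ± 0.14, adjusted p = 0.119). Psmd9 had 0.535 and 0.651, 0.685 and 0.740, and 0.887 and 0.841 (0.41 ± 0.14, adjusted p = 0.0792), and Psme3ip1 reached 2.18 and 2.38 from 1.26 and 1.84 (0.51 ± 0.18, adjusted p = 0.0737). In each of these 4 genes the 8 h arrays lay above both untreated arrays, and none was called. The 4 were picked by their p in this same comparison, where 33.8% of all tested probe sets lay above without overlap. The ATPase Psmc4 had the most negative difference at 8 h, with 0.932 and 0.748 before AP20187, then 0.472 and 0.591 at 4 h and 0.369 and 0.502 at 8 h, without overlap or a call (8 h difference -0.67 ± 0.58, adjusted p = 0.540).

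In AA cells, which carry mutant eIF2alpha, AP20187 called 0 members at 4 h and 0 at 8 h, where 0% of all tested probe sets were called at either time. At an unadjusted p under 0.05 the member counts were 0 (2.28% of all) and 0 (4.67%). The member median was -0.05 at 4 h and -0.15 at 8 h, beside 0.02 and -0.04 over all. Both treated arrays lay above both untreated ones for 2 members (18%) and below for 10 (12.7%) at 4 h, and above for 1 (14.1%) and below for 19 (19.7%) at 8 h. The AA and SS responses, compared by interaction, differed for 0 members at 4 h (1.29% of all; 2 at unadjusted p under 0.05, where 12.7% were) and for 0 at 8 h (5.35%; 6, where 20.2% were), with member medians of 0.12 and -0.26 beside 0.04 and -0.08. These medians were 0.34 and -0.08 without replicate 1 of the untreated SS arrays, and -0.03 and -0.49 without replicate 2. Psma5 in AA cells had 1.64 and 1.67 before AP20187, then 1.60 and 1.62 at 4 h and 1.45 and 1.43 at 8 h, and the difference of its 4 h response from SS cells was 0.51 ± 0.21 (adjusted p = 0.314). Psmc2 had 1.54 and 1.69, 1.56 and 1.47, and 1.44 and 1.33, and the difference of its 8 h response was -0.59 ± 0.21 (adjusted p = 0.117).

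Against untreated SS cells, untreated AA cells had lower Psme1 and higher Psmc3. These were the 2 members called of 43, where 14.7% of all tested probe sets were called, and 8 had an unadjusted p under 0.05 (27.8%). The member median was 0.03, beside 0.01 over all. Both AA arrays lay above both SS arrays for 9 members (29.2%) and below for 8 (29.6%). Without replicate 1 of the untreated SS arrays the median was -0.15 with 4 calls, and without replicate 2 it was 0.23.

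Psme1 showed the widest gap. Its ratios were 2.61 and 4.22 in untreated SS cells and 0.846 and 0.892 in untreated AA cells, means of 3.42 ± 1.13 (SD, n = 2) and 0.869 ± 0.0319. The difference was -1.68 ± 0.28 (limma adjusted p = 0.000709), with the AA mean at 0.254 of the SS mean. After AP20187 the AA arrays had 0.982 and 0.853 at 4 h and 0.806 and 0.723 at 8 h, so the 6 AA arrays all lay below the lowest SS array, 1.98. The call held with each untreated array left out in turn, with differences from -2.00 to -1.36. The second Psme1 probe set, 161293_r_at, was at the floor on 2 arrays and was not tested. It did not show this gap, with 1.22 and 0.869 in untreated SS and 0.312 and 1.01 in untreated AA cells.

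The inducible subunits Psmb8 and Psmb9 lay lower in AA cells too, though neither was called. Psmb8 had 0.513 and 0.485 in untreated AA cells, 0.460 and 0.436 at 4 h and 0.504 and 0.348 at 8 h, all below its lowest SS value of 1.03. The untreated difference was -1.53 ± 0.58 (adjusted p = 0.0939). It was called in a fit to the Fv2E-PERK arrays alone (adjusted p = 0.00329) and after quantile normalization (-1.73, adjusted p = 0.0390). Psmb9 had 7.78 and 11.9 in untreated SS cells, 10.3 and 13.9 at 4 h and 9.98 and 14.0 at 8 h, against 4.57 and 6.87, 2.00 and 4.40, and 2.22 and 2.11 in AA cells. Its high ratios reflect a median set by arrays at the floor. With no filter on low values its untreated AA minus SS difference was -0.75 ± 0.29 (adjusted p = 0.132), and within AA cells it was -1.28 ± 0.29 at 8 h (adjusted p = 0.206). Psmb10 also lay below both SS arrays in untreated AA cells, lay above both at 4 h and overlapped with SS cells at 8 h, with 1.15 and 1.04, 1.27 and 1.05, and 1.17 and 0.994 in AA cells (untreated difference -0.49 ± 0.24, adjusted p = 0.205).

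Of the other PA28 genes, the shared Psme2 and Psme2b probe set 100588_at had 1.36 and 2.46 in untreated SS cells and 0.896 and 0.920 in untreated AA cells, and was called lower (-0.85 ± 0.22, limma adjusted p = 0.0174). The other shared probe set, 161938_r_at, had a difference of the opposite sign with a standard error of 0.70 that was not called (adjusted p = 0.392). In SS cells 100588_at had 0.953 and 1.32 at 4 h and 1.14 and 1.57 at 8 h, and in AA cells 0.826 and 0.787, then 0.779 and 0.703. Psme3, the PA28 gamma subunit of the nucleus, was at the floor on 2 arrays (both PERK-/- arrays with tunicamycin) and was not tested. It had 4.82 and 2.43, 2.04 and 1.92, and 2.56 and 3.16 in SS cells, and 1.49 and 1.07, 1.37 and 1.45, and 1.29 and 1.58 in AA cells. With no filter on low values the untreated difference was -1.29 ± 0.38 (adjusted p = 0.0423). On the other tunicamycin arrays Psme3 read 0.317 and 0.820 against 0.380 and 0.289 with the drug in wild-type cells, 0.278 and 0.433 against 0.819 and 0.617 in ATF4-/- cells, and 0.930 and 0.276 in untreated PERK-/- cells.

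Psmc3, an ATPase, was called higher in untreated AA cells on the probe set 93734_i_at. It had 1.34 and 1.84 in untreated SS and 2.38 and 2.70 in untreated AA cells, a ratio of means of 1.60 (0.61 ± 0.19, limma adjusted p = 0.0431). In SS cells it had 1.22 and 1.54 at 4 h and 1.67 and 1.93 at 8 h, and in AA cells 2.50 and 2.20, then 2.23 and 1.71. On the tunicamycin arrays it lay between 0.443 and 0.783. Its probe set 100225_f_at had 1.38 and 2.49 against 3.89 and 3.38 (0.88 ± 0.40, adjusted p = 0.166), and 93735_f_at had 0.903 and 1.43 against 1.60 and 1.16, which overlap. The call was lost with a smaller pseudocount (adjusted p = 0.0552), without the filter (adjusted p = 0.0523), without replicate 1 of untreated SS (adjusted p = 0.293) and without either untreated AA array (adjusted p = 0.0966 and 0.237).

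None of the constitutive catalytic subunits was called between the untreated lines. Psmb6 had 1.49 and 1.93 in untreated AA cells, 1.83 and 1.51 at 4 h and 1.46 and 1.26 at 8 h, and its untreated difference from SS cells was 0.01 ± 0.24. Psmb7 had 1.63 and 1.64, 1.86 and 1.51, and 1.67 and 1.41 (0.28 ± 0.18), and Psmb5 on 101558_s_at had 2.21 and 2.25, 2.16 and 1.76, and 2.05 and 1.41 (0.26 ± 0.21). Their 95% intervals ran from -0.50 to 0.52, from -0.10 to 0.66 and from -0.18 to 0.70. Psmd9 had 0.897 and 0.876 in untreated AA cells against 0.535 and 0.651 in SS cells, without overlap (0.44 ± 0.14, adjusted p = 0.0535).

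**Figure D3:**
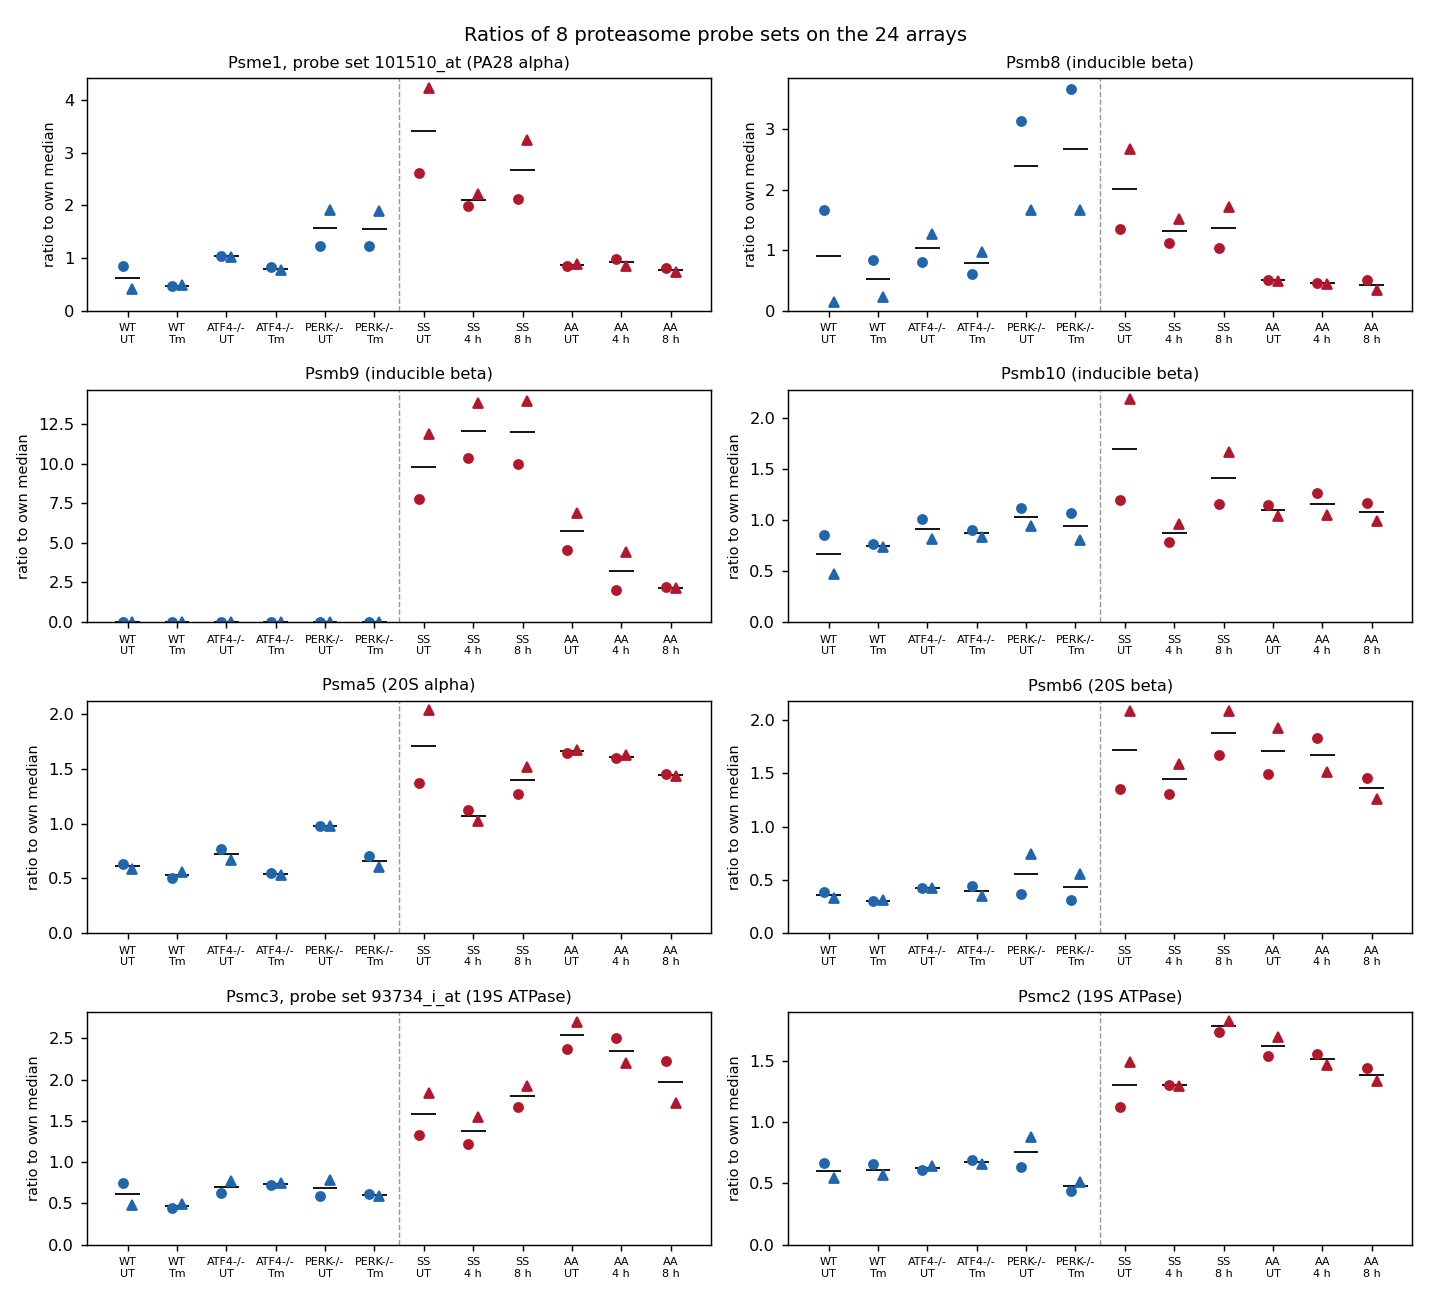
Ratios of 8 proteasome probe sets on the 24 arrays, each relative to its own median, with circles and triangles for the 2 replicates, black bars for group means, and a dashed line between the tunicamycin arrays (blue) and the Fv2E-PERK arrays (red). Psme1 and Psmb8 lie low on all 6 AA arrays and Psmb9 is at the floor on all 12 tunicamycin arrays, while Psma5 dips in SS cells at 4 h.

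Probe sets of the same gene did not always move together. Of 6 genes with more than 1 tested probe set, Psmb1 and Psmb5 had matching signs in 10 of 14 comparisons, Psmc3 and Psmd11 in 7, and Psmb4 and Psmc5 in 4. The widest gap, 1.93, was that of Psmb4 between untreated PERK-/- and wild-type cells, where 98556_at had a difference of -1.58 and 98557_f_at one of 0.35. On 98556_at the untreated wild-type arrays read 1.82 and 5.11 and the untreated PERK-/- arrays 3.34 and 0.0987. The second probe set of Psmb5, 160559_at, had a difference of 0.27 ± 0.25 with tunicamycin in wild-type cells, where 101558_s_at had -0.05 ± 0.21. Values of Psmb4, Psmc5, Psmc3 and Psmd11 are therefore uncertain at the level of the gene.

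Members outside the test were Psmb9 (at the floor on 12 arrays), 1 of 3 probe sets of Psmb4 (10 arrays), Psmd10 (7), 1 of 3 of Psmd11 (5), Psmc3ip (4), 1 of Psme1 (2), Psme3 (2), and 1 array each for Psmd1, Psmd2 and 1 probe set of Psmb1. Psmd1, the large scaffold of the cap, had 2.27 and 2.43 in untreated SS cells, 1.94 and 2.09 at 4 h and 2.42 and 3.04 at 8 h. Psmd10, a chaperone of cap assembly also called gankyrin, had 1.34 and 2.29, 1.38 and 1.45, and 1.67 and 1.85, and in AA cells 2.17 and 1.90, 2.00 and 1.52, and 1.55 and 1.51. For both genes the SS arrays at 8 h overlapped the untreated ones.

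Over the 12 group means, centred within each set of arrays, 15 of 43 members correlated above 0.5 with the mean of the other members and 2 below 0 (Psmc4 and Psmb4 on 98556_at). These points share arrays and scaling, so the values are descriptive. Psmb6 had the highest value, 0.91, followed by Psmb4 on 98557_f_at (0.79), Psmd6 (0.79) and Psmb10 (0.79), and Psme1 had 0.32 and Psmb8 0.23. The 5 other genes most like the members' mean profile were Spr (0.92), Samm50 (0.90), Mdh2 (0.89), Kpna2 (0.88) and 1110008P14Rik (0.88).

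Genes that assemble, bind or regulate the proteasome had 17 tested probe sets for 16 genes. In SS cells 3 were called higher and 1 lower at 4 h, where 8.98% of all tested probe sets were called, and 6 higher and 0 lower at 8 h (12.4%), with list medians of -0.08 and 0.53. The 4 calls at 4 h became 1 without either untreated array and 0 without either treated array. The 6 at 8 h became 2 and 3 without replicate 1 and replicate 2 of the untreated arrays, and 4 and 1 without those of the treated arrays. The lower one was Pomp, the chaperone that matures the beta rings, at 1.62 and 2.27 before AP20187, then 1.10 and 1.03 at 4 h and 1.23 and 1.30 at 8 h (4 h difference -0.73 ± 0.16, limma adjusted p = 0.0120). It thus lay below both untreated arrays at both times. The 8 h calls included Uchl5, a deubiquitinase of the cap, with 0.758 and 0.618 untreated and 1.88 and 1.68 at 8 h (1.12 ± 0.24, adjusted p = 0.00642), and Psmg1, which helps build the alpha ring, at 1.23 and 1.53 before AP20187, then 1.05 and 1.23 at 4 h and 2.32 and 2.52 at 8 h (0.72 ± 0.16, adjusted p = 0.00792). Akirin2, which brings proteasomes into the nucleus, rose on both probe sets at 8 h (0.73 and 0.84) and at 4 h (0.61 and 0.66). Ublcp1, a phosphatase of the cap, rose by 0.85 ± 0.22 and Nfe2l1, the gene of the transcription factor Nrf1, by 0.53 ± 0.15 at 8 h. The difference between these genes and the subunits was not tested.

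In AA cells AP20187 called 0 of the 17 at both times, where 0% of all tested probe sets were called. At unadjusted p under 0.05 the counts were 0 and 2, where 2.28% and 4.67% of all were. The SS and AA responses at 8 h differed for 5 of the 17, all lower in AA cells, where 5.35% of all tested probe sets were called. This count was 3 without the filter and with quantile normalization, and with single arrays left out it ran from 0 (without SS replicate 2 at 8 h, AA replicate 2 at 8 h or untreated AA replicate 1) to 7. In wild-type cells with tunicamycin, where 2.81% of all were called, the single call was Nfe2l1 on 160535_at, with 0.999 and 0.869 untreated and 1.57 and 1.79 treated (0.71 ± 0.15, limma adjusted p = 0.0201). Its other probe set, 101757_at, was at the floor on 2 arrays and was not tested, and had 0.507 and 1.06 untreated and 0.105 and 0.690 treated in wild-type cells. No partner gene was called in ATF4-/- or PERK-/- cells with tunicamycin, where 1.15% and 0.231% of all were. At unadjusted p under 0.05 the counts were 4 and 2 of the 17, where 11.9% and 9.46% of all were. Pomp had 0.681 and 0.691 untreated and 0.484 and 0.498 treated in wild-type cells and 0.719 and 0.771 against 0.537 and 0.456 in ATF4-/- cells, without a call. Between the untreated lines 4 of the 17 were called higher in AA cells and 2 lower, where 14.7% of all tested probe sets were called. Among them, Uchl5 (1.09) and Psmg1 (0.66) were called higher in untreated AA than in untreated SS cells, and Nfe2l1 lower (-0.79), with limma adjusted p from 0.00285 to 0.0107. These untreated levels enter each line's response as its baseline.

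**Figure D4:**
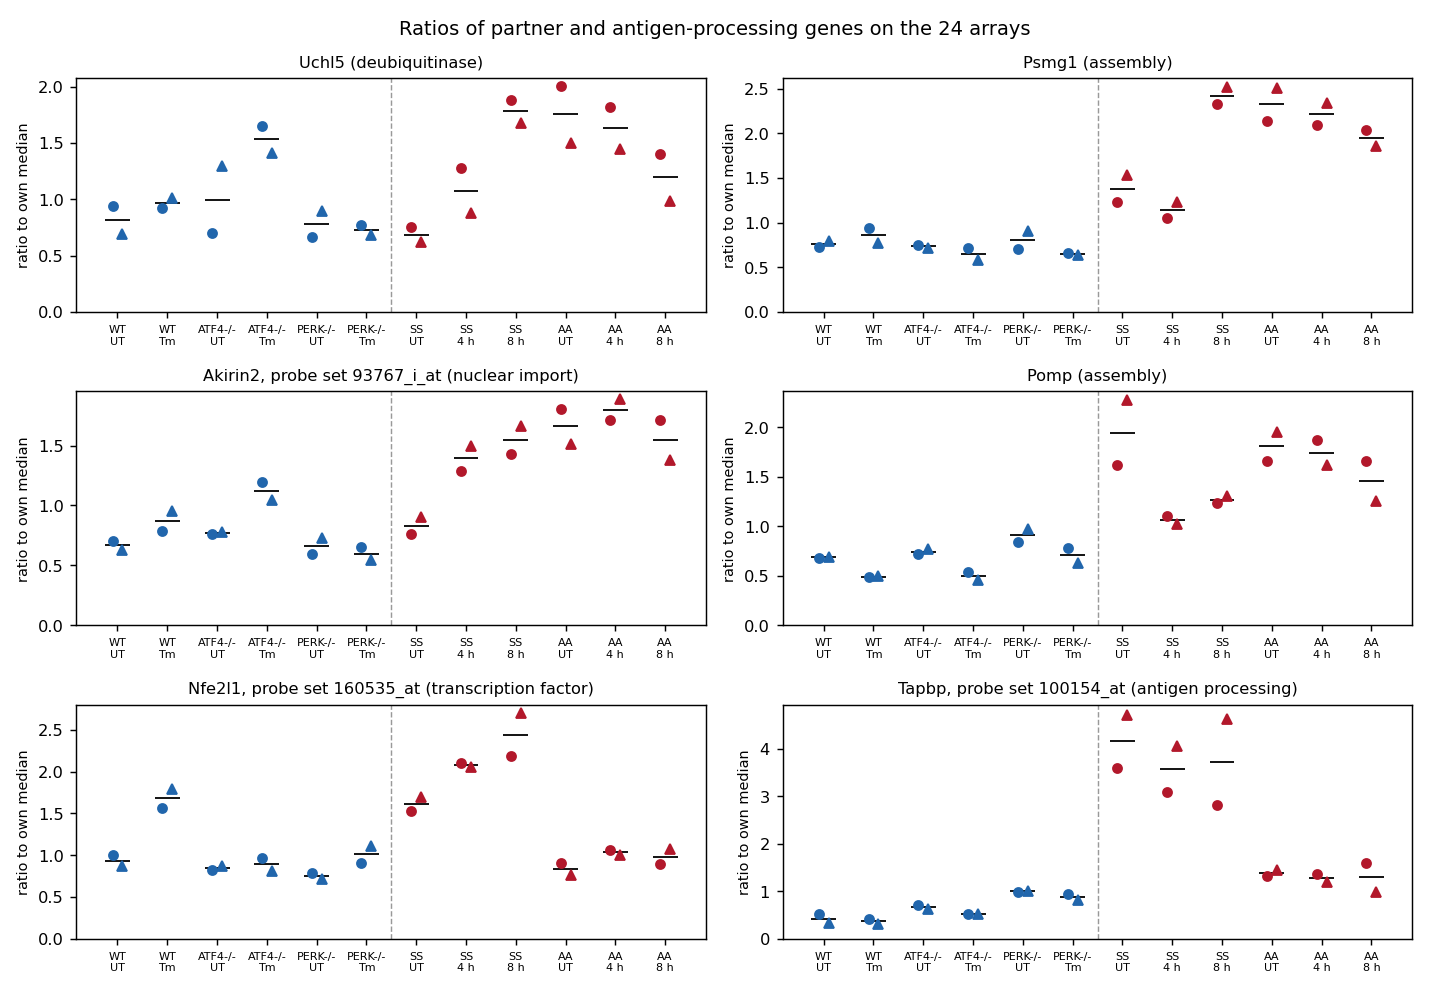
Ratios of 5 proteasome partner genes and of Tapbp on the 24 arrays, drawn as in the plot of member ratios. Uchl5 and Psmg1 are higher in SS cells at 8 h than in untreated SS cells, Pomp falls in SS cells at 4 h, and Nfe2l1 on 160535_at is higher with tunicamycin in wild-type cells.

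Ubiquitin-pathway genes had 17 tested probe sets for 13 genes. Ufd1, which with Vcp extracts ER proteins for the proteasome, was called higher with tunicamycin in wild-type (0.62 ± 0.16, limma adjusted p = 0.0476) and ATF4-/- cells (0.69 ± 0.16, adjusted p = 0.0488), the single call of the list in each. Of all tested probe sets 2.81% and 1.15% were called there. In SS cells 0 were called at 4 h (8.98% of all; 2 at unadjusted p under 0.05, where 22.5% were) and 3 at 8 h (12.4% of all), all higher: Sqstm1, an autophagy receptor for ubiquitin (1.43 ± 0.31, adjusted p = 0.00635), Uba3, the NEDD8-activating subunit (0.53 ± 0.14), and Ubqln1, a shuttle to the proteasome (0.44 ± 0.13). List medians were 0.13, 0.25, 0.22 and 0.28 in these 4 comparisons.

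Antigen-processing genes known to respond to interferon together with the immunoproteasome had 11 tested probe sets. Tapbp, the peptide-loading chaperone tapasin, had 0.511 and 0.330 in untreated wild-type and 0.983 and 1.01 in PERK-/- cells on 100154_at and was called higher (0.91 ± 0.24, limma adjusted p = 0.0379). Its other probe sets were not called in that comparison. There 102689_at overlapped, with 1.11 and 0.856 in wild-type and 1.26 and 0.966 in PERK-/- cells. For 162104_f_at the values were 1.15 and 1.59 against 1.91 and 1.62. On 100154_at Tapbp had 3.60 and 4.71 in untreated SS and 1.32 and 1.44 in untreated AA cells. It was called lower in AA cells (-1.42 ± 0.24, adjusted p = 0.000810). Of its other probe sets, 102689_at was also called lower there (-1.05) and 162104_f_at was not. The list had 1 call higher and 0 lower in untreated PERK-/- cells (4.99% of all; list median 0.31) and 0 higher and 2 lower in untreated AA cells (14.7% of all; list median 0.10). In SS cells at 4 h Irf1 (0.74 ± 0.19) and 1 of 2 probe sets of Tap1 (1.10 ± 0.30) were called higher, with adjusted p of 0.0247 and 0.0344. They were the 2 calls of the list there, where 8.98% of all tested probe sets were called.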

How the data were processed

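Values come from the table the authors deposited, a ratio by its values: the median across the 24 arrays was within 0.01 of 1 for 91.5% of probe sets. How the arrays were summarised and scaled is not given. After 66 AFFX controls were left out, probe sets never at the floor were tested as log2(ratio + 0.247), with a pseudocount set to the overall median divided by 4. limma 3.58.1 in R 4.3.3 fitted 12 group means with a trended prior (12 residual degrees of freedom), two-sided, in 14 comparisons. The spread of each probe set was estimated over all 24 arrays together. The standard error of a comparison within the tunicamycin or the Fv2E-PERK arrays thus also draws on the other set. Replicate arrays correlated at 0.71 to 0.79 in the tunicamycin groups and at 0.68 to 0.93 in the Fv2E-PERK groups. Symbols came from the platform annotation, and all 42 member genes were found in a RefSeq gene table by Entrez ID. No label says whether replicate arrays are separate cultures, and p-values therefore reflect the spread between these samples alone, which may be technical. The members and gene lists were chosen with earlier results of these data known. Named were each called member, Psmb5 to Psmb10, the PA28 genes, the member with the smallest p in each role, and up to 4 genes of each other list by smallest p in a comparison. Of the latter, Nfe2l1 in SS cells, Psmg1 in untreated cells and Pomp with tunicamycin were added after their values were seen. The fit was tested on simulated data. Alternatives changed the pseudocount, the filter, the normalization, the arrays fitted, a replicate block and single arrays.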

Additional observations from a re-analysis of the deposited data

Results flagged for a closer look

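At 8 h of AP20187, 6 probe sets of partner and ubiquitin genes differed between the responses of the AA and SS lines by limma's interaction test, where 5.35% of all tested probe sets did. Of the 6, 5 were partner probe sets, and that count fell to 0 without SS replicate 2 at 8 h, AA replicate 2 at 8 h or untreated AA replicate 1. The difference, AA response minus SS response, was -1.60 for Uchl5 (adjusted p = 0.0140), -0.91 for Zfand5, which binds and stimulates the proteasome (0.0442), -0.95 for Psmg1 (0.0251), -0.81 for Uba3 (0.0294), and -0.82 and -1.02 for the probe sets of Akirin2 (0.0412 and 0.0305). For Uchl5 the SS arrays went from 0.758 and 0.618 to 1.88 and 1.68, while the AA arrays went from 2.01 and 1.50 to 1.40 and 0.985. For Psmg1 they went from 1.23 and 1.53 to 2.32 and 2.52 in SS cells and from 2.13 and 2.51 to 2.04 and 1.85 in AA cells. For Uchl5, Psmg1 and both probe sets of Akirin2 the untreated AA arrays stood above the untreated SS arrays. For Uba3 the untreated AA arrays stood below them, and for Zfand5 the untreated lines overlapped. The part of these untreated levels in the difference was not tested.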

How the results depend on the processing

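Of 156 counts of called members under alternatives, 130 equalled the main count or stayed within 1.5 times it. The main count was 0 in most comparisons, and a count that stayed at 0 is among the 130. The total therefore says little about the comparisons that had calls, whose counts are given below. Of 156 member medians under alternatives, 13 changed sign, in 8 of 14 comparisons, and none of 70 values of single members did. Those 70 values cover 7 results only, the calls of the main fit and large differences of Psmb8 and Psmb10. Results picked for large differences in these data tend to keep their sign, so this count does not bear on the other members. The median for untreated AA against SS cells was -0.04 with quantile normalization, and the other 12 sign changes came with single arrays left out. For untreated PERK-/- against wild-type cells the count was 2 with a smaller pseudocount, with quantile normalization and with each array divided by its median, 0 in a fit to the tunicamycin arrays alone, and 0 to 2 with single arrays left out. For SS cells at 4 h it was 0 in a fit to the Fv2E-PERK arrays alone and 0 to 6 with single arrays left out. At 8 h it was 0 to 2, and for the difference of responses at 8 h 0 to 1, with single arrays left out. For untreated AA against SS cells it was 4 with quantile normalization (1 higher), 4 with arrays divided by their median (3 higher), 5 in a fit to the Fv2E-PERK arrays alone (2 higher) and 1 to 4 with single arrays left out. Partner counts, an alternative added after seeing the data, were 3 without the filter and with quantile normalization for the difference of responses at 8 h, and ranged over 0 to 7 there, 0 to 1 in SS cells at 4 h and 1 to 4 at 8 h with single arrays left out.

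Of 9 correlations between the deviations of same-numbered arrays, 5 were over 0.1 (range -0.00 to 0.21), short of the rule that all be, so the numbers were not taken as pairs. With the replicate block the member counts were 3 for untreated PERK-/- cells, 3 for SS cells at 4 h, 1 at 8 h, 1 for the difference of responses at 8 h and 5 for untreated AA against SS cells. The number of arrays (2 a group) limits the precision.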
